A study of Mus musculus with 12 samples.

Results

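The genes examined here encode the proteasome: the subunits of its core and of its regulatory particle, the chaperones that assemble them, and its activators and inhibitor. They were chosen by gene symbol (Psma1 to Psma7, Psmb1 to Psmb7, Psmc1 to Psmc6, Psmd1 to Psmd14, Psme1 to Psme4, Psmf1, Psmg1 to Psmg4, Pomp and Adrm1), with no use of measured values. The rule matched 45 of the 40077 genes in the table of cultured cells and 45 of the 34508 in the table of tumors. All 45 passed the filter on low counts in every comparison, and the lowest estimated count of any of them in any library was 108. Psmb8, Psmb9 and Psmb10, the catalytic subunits that lymphoid cells and interferon-treated cells use, were kept out of the rule and are described apart from it.

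The proteasome degrades proteins that carry ubiquitin chains. Its barrel-shaped 20S core is a stack of rings, with the alpha subunits on the outside as gates and the beta subunits inside, of which Psmb5, Psmb6 and Psmb7 carry the catalytic sites. The 19S particle caps the core: its base holds the ATPases that unfold substrates and the receptors that bind ubiquitin, and its lid holds the enzyme that removes ubiquitin. Proteasome genes tend to be transcribed together, and when proteasome activity is short the transcription factor encoded by Nfe2l1 raises them.

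RNA was sequenced from 12 mouse libraries in 4 groups of 3. Myc-CaP is a prostate carcinoma line from a mouse carrying a human MYC transgene driven in the prostate, so every group shares that background. Cells in culture received DMSO, the solvent, or YJ1206 at 1 μM for 24 hours. YJ1206 is a PROTAC, a compound that brings its target proteins to a ubiquitin ligase for degradation by the proteasome, and its targets are the transcriptional kinases CDK12 and CDK13. The tumors grew from Myc-CaP cells injected under the skin of male FVB mice, which have an intact immune system. These mice were dosed orally 3 times per week with vehicle or with 100 mg/kg of YJ1206. The age of the mice and the time between the last dose and collection were not given in the sources used here. The study's methods describe its replicates in general as biologically independent, while the labels tie no library to a culture or a mouse, and the p-values measure the spread between these libraries.

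Total estimated counts ranged from 18198194 to 18520071 in DMSO cells, from 13936984 to 14869719 in YJ1206 cells, from 15391684 to 26928447 in vehicle tumors and from 18307881 to 22418746 in YJ1206 tumors. The biological coefficient of variation was 0.0322 in cells and 0.139 in tumors, so the cell comparison resolved much smaller changes. Of the epithelial markers, Epcam had 0 counts in all cell libraries, Cdh1 had 0 to 6 and Krt18 had 3 to 8, while Krt8 and Krt19 were detected in each. DMSO and YJ1206 cell libraries carry numbers from separate series, so a difference in library batch cannot be told apart from treatment there. In the tumors, the library numbered 3 lay between libraries 1 and 2 for 96.4% (vehicle) and 97.5% (YJ1206) of the genes that differed at least 1.5-fold between libraries 1 and 2, against 80% and 74.1% of 25 and 27 such genes in cells. Counts of proteasome genes called with the tumor libraries are also given without both libraries 3.

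In DMSO cells the proteasome genes were abundant. Levels between genes are compared here as TPM, transcript abundances that are scaled for gene length and for the library, and the 45 genes summed to 8726 ± 36.3 TPM (SD, n = 3). Psmb3, a structural beta subunit, had 400, 412 and 410 TPM, and Psmd8, a lid subunit, had 403, 407 and 410 TPM. Those ranges overlapped, so the order of these genes does not exceed the spread. Psma4 followed at 373 ± 6.80 TPM (SD, n = 3), and the median gene lay between 175 and 181 TPM in the libraries. At the low end were Psmd10, a chaperone of the base, at 33.3 ± 1.74 TPM, and Psmf1, which encodes an inhibitor of the core, at 19.3, 23.4 and 19.5 TPM. Their ranges were apart. Across the 14 alpha and beta genes, whose products sit in the core in equal numbers, the coefficient of variation of the TPM was 0.356 in DMSO cells and 0.399 in YJ1206 cells on average.

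With YJ1206 in culture, most proteasome genes rose. On the scale of CPM, counts divided by library size after TMM normalisation, 35 of the 45 were higher at an adjusted p under 0.05 by edgeR's quasi-likelihood test, 4 were lower and 6 passed in neither direction. Over all 11826 genes tested in cells, 37.8% were higher and 38.3% lower, so 76.1% were called in one direction or the other. Mitochondrial genes held 3.35% to 3.46% of the counts with DMSO and 5.04% to 5.19% with YJ1206, and the part of this shift and of the lower depth in the calls was not tested. Krt8, an epithelial keratin, moved from 55 to 61 counts with DMSO to 421 to 449 with YJ1206. Summed epithelial markers moved from 144 to 152 TPM to 208 to 215 TPM. Summed macrophage and monocyte markers moved from 1.23 to 2.41 TPM to 4.51 to 7.52 TPM. Only 1 of these 7 markers passed the filter. Adgre1, C1qa, C1qb and Mrc1 had no counts in any cell library, so that sum rests on the others. Summed T and NK cell markers were lower with YJ1206 (3.72 to 5.89 and 1.59 to 1.9 TPM). The neutrophil and adipocyte sums were also lower, each without overlap. The part of these shifts in the calls was not tested either. The median log2 fold change of the proteasome genes was 0.48, beside -0.017 over all genes tested. The CPM of the groups did not overlap for 39 genes, 34 of them above DMSO and 5 below, against 38.4% of all genes above and 39.2% below. Scaling matters in these cells: with library totals in place of TMM the median over all genes moved to -0.204 and 30 proteasome genes were higher and 8 lower (28% and 49.7% of all genes), and on log2(TPM + 1) it moved to -0.245 with 27 higher and 11 lower (21.4% and 52% of all genes). Relative to the median of all genes, 39 of 45 lay above it with TMM, 39 with library totals and 37 on log2(TPM + 1).

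**Figure D1:**
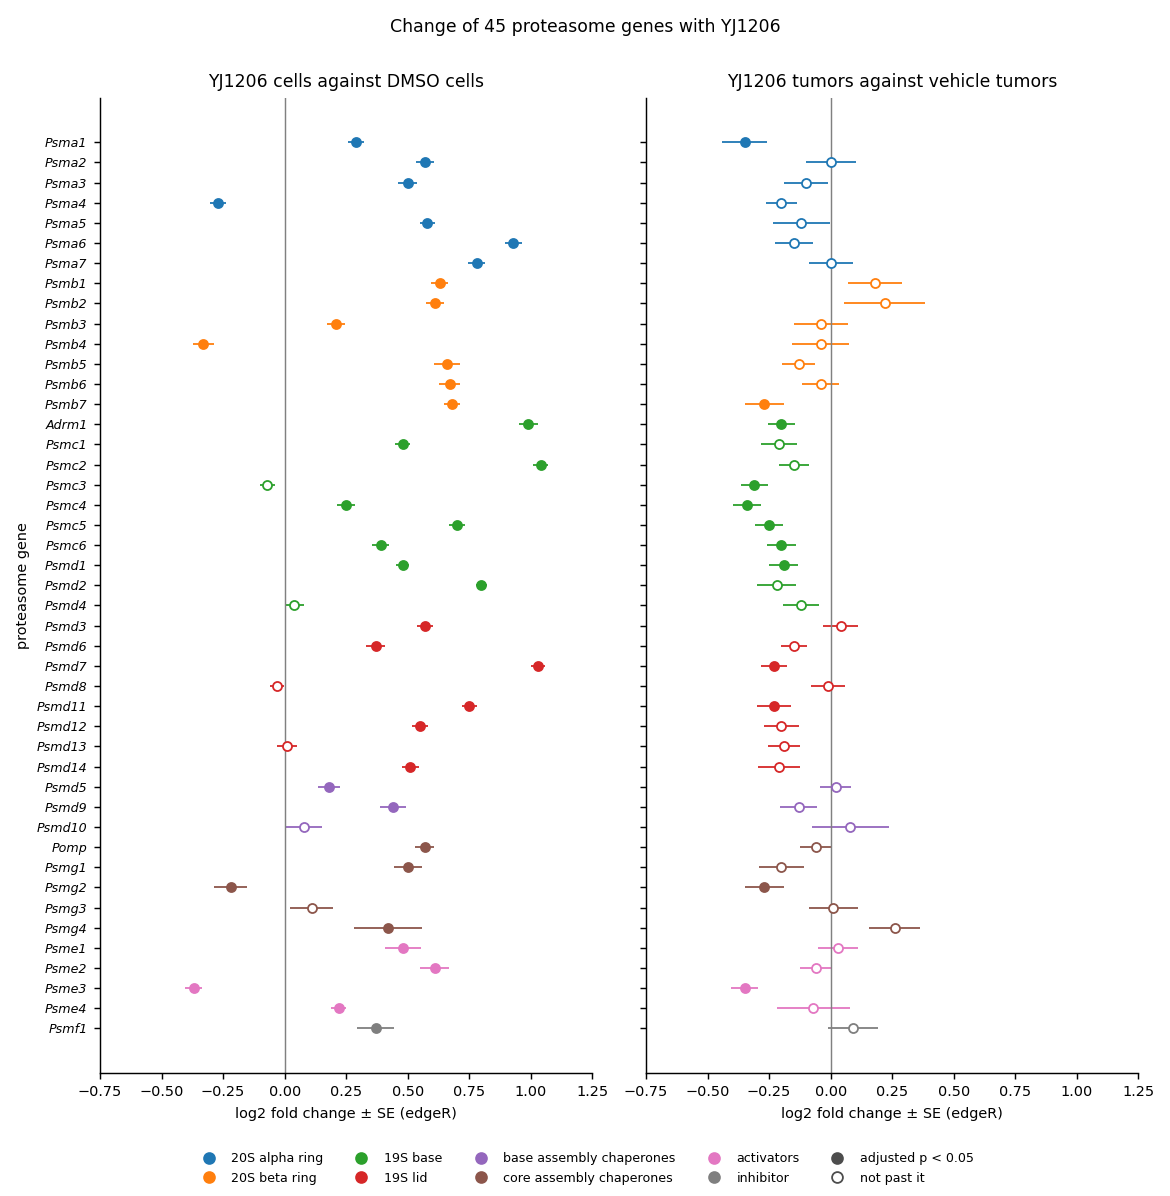
Log2 fold change with YJ1206 of each of the 45 proteasome genes (rows, coloured by role) in cells (left) and tumors (right), as points with bars of 1 SE from edgeR, filled where the adjusted p was under 0.05. In cells 35 filled points lie to the right of 0 and 4 to the left, and in tumors 12 filled points lie to the left and 0 to the right.

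The catalytic beta subunits rose together in cells. Psmb5, the chymotrypsin-like subunit and the target of bortezomib, had 39.5, 38.1 and 36.2 CPM with DMSO and 58.6, 59.4 and 62.2 CPM with YJ1206. Psmb6, the caspase-like subunit, went from 63.2, 61.8 and 61.2 CPM to 94.4, 102 and 99.3 CPM. Psmb7, the trypsin-like subunit, went from 164, 155 and 162 CPM to 254, 254 and 262 CPM. All treated libraries were above all controls for these 3 genes, and their log2 fold changes were 0.66 ± 0.054, 0.67 ± 0.043 and 0.68 ± 0.033 (SE). The edgeR adjusted p-values were 1.25e-11, 8.03e-14 and 2.35e-16. Exons of Psmb7 overlap those of Nek6 on the other strand by at least 50 bp, and those of Psmb5 overlap Mir686, so reads there may be shared. The same uncertainty holds for Psma4, Psma5, Psmc3, Psmd1, Psmd13 and Psmg3, whose exons also overlap another gene, while rows named as pseudogene copies held 0 to 9 counts and Psme2b, a copy of Psme2, held 0 to 5 in cells and 8 to 27 in tumors.

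Of the structural subunits of the core, 9 of 11 also rose. Psma6, an alpha subunit, had the largest change of the core: 154, 152 and 146 CPM with DMSO against 291, 287 and 286 CPM with YJ1206, a 1.91-fold higher level (log2 0.93 ± 0.033, edgeR adjusted p = 1.23e-19). The other alpha genes that rose were Psma1, Psma2, Psma3, Psma5 and Psma7, with log2 fold changes of 0.29 to 0.78, and among the beta genes Psmb1 and Psmb2 rose by 0.63 and 0.61 and Psmb3 by 0.21. Under log2(TPM + 1), Psmb3 was instead lower (-0.122, adjusted p = 0.00513 by limma) and Psma1 was at -0.028 and not called.

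Both exceptions in the core fell under each scaling. Psmb4, a beta subunit without a catalytic site, had 160, 170 and 160 CPM with DMSO and 124, 127 and 139 CPM with YJ1206 (log2 -0.33 ± 0.041, edgeR adjusted p = 3.67e-08). Psma4 had 203, 208 and 205 CPM with DMSO and 169, 169 and 173 CPM with YJ1206 (log2 -0.27 ± 0.033, edgeR adjusted p = 2.71e-08). The treated libraries lay below the controls for both genes. In DMSO cells Psma4 and Psmb4 held 373 and 288 TPM.

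In the 19S particle, 14 of 18 genes rose with TMM and none was called lower. Of the 6 ATPases of the base, Psmc2 changed the most: 165, 170 and 168 CPM with DMSO against 343, 342 and 349 CPM with YJ1206, 2.06-fold higher (log2 1.04 ± 0.030, edgeR adjusted p = 2.56e-21). Psmc5 rose by 0.70, Psmc1 by 0.48, Psmc6 by 0.39 and Psmc4 by 0.25. Psmc4 changed sign under log2(TPM + 1) (-0.062, adjusted p = 0.13 by limma). Psmc3, the remaining ATPase, had 202, 211 and 205 CPM with DMSO and 194, 196 and 199 CPM with YJ1206. Its treated libraries were all below its controls, but its log2 fold change of -0.07 ± 0.032 missed the threshold (edgeR adjusted p = 0.0562). With library totals and on log2(TPM + 1), Psmc3 was called lower.

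Of the base subunits that are not ATPases, Adrm1, a ubiquitin receptor, rose from 126, 129 and 126 CPM to 241, 248 and 269 CPM (log2 0.99 ± 0.038, edgeR adjusted p = 8.93e-19). Psmd2, a scaffold that docks ubiquitin-like domains, went from 598, 603 and 595 CPM to 1040, 1049 and 1036 CPM, a change of 0.80 ± 0.023. Psmd1, the other scaffold, rose by 0.48. Psmd4, the second ubiquitin receptor of the base, had 154, 168 and 157 CPM with DMSO and 157, 163 and 172 CPM with YJ1206, and its groups overlapped (log2 0.04 ± 0.040, edgeR adjusted p = 0.415). With library totals and on log2(TPM + 1), Psmd4 was called lower. The difference between the changes of these receptor genes was not tested.

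In the lid, Psmd7 and Psmd14 encode the partners of the module that strips ubiquitin, Psmd14 being the active enzyme. Psmd7 had 243, 241 and 237 CPM with DMSO and 483, 494 and 495 CPM with YJ1206, a 2.04-fold higher level with no overlap (log2 1.03 ± 0.027) and the smallest adjusted p of the proteasome genes in cells, 3.45e-22 by edgeR. Psmd14 rose by 0.51 ± 0.035. Psmd11, Psmd3, Psmd12 and Psmd6, scaffold subunits of the lid, rose by 0.75, 0.57, 0.55 and 0.37. Psmd8 and Psmd13 did not pass with TMM, at -0.03 ± 0.029 and 0.01 ± 0.041, and their groups overlapped. Both were called lower with library totals and on log2(TPM + 1).

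Among the assembly chaperones, 5 of 8 rose and 1 fell. Pomp, which drives maturation of the beta ring, went from 85.6, 86.6 and 90.4 CPM to 133, 127 and 128 CPM (log2 0.57 ± 0.039, edgeR adjusted p = 3.46e-13). Psmg1 and Psmg2 encode the partners of one chaperone dimer for the alpha ring, yet Psmg1 rose by 0.50 ± 0.057 while Psmg2 fell from 28.1, 29.6 and 28.1 CPM to 24.8, 24.2 and 24.5 CPM (log2 -0.22 ± 0.069, edgeR adjusted p = 0.00481). Psmg4 was called higher at 0.42 ± 0.139, but its groups overlapped. Psmg3 (0.11 ± 0.087) and Psmd10 (0.08 ± 0.073) were not called with TMM and were called lower on log2(TPM + 1). Psmd5 and Psmd9, chaperones of the base, rose by 0.18 and 0.44 with TMM. Psmd5 changed sign with library totals (-0.01) and on log2(TPM + 1) (-0.21) and was called with neither, and Psmd9 was at 0.06 on log2(TPM + 1) and not called. Psmg4 was called with neither of these scalings, and Psmd6 and Psmf1 were not called on log2(TPM + 1).

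Of the 4 activators, 3 rose and 1 fell. Psme1 and Psme2, which form the interferon-inducible cap, rose by 0.48 ± 0.074 and 0.61 ± 0.058, and Psme4, a nuclear activator, by 0.22 ± 0.030, a call that library totals did not give. Psme3, which encodes the nuclear activator of ubiquitin-independent degradation, had 260, 285 and 259 CPM with DMSO and 208, 206 and 207 CPM with YJ1206. Its treated libraries lay below its controls (log2 -0.37 ± 0.035, edgeR adjusted p = 3.21e-10). Psmf1 rose from 22.8, 25.8 and 22.6 CPM to 28.8, 33.0 and 30.5 CPM (log2 0.37 ± 0.075).

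**Figure D2:**
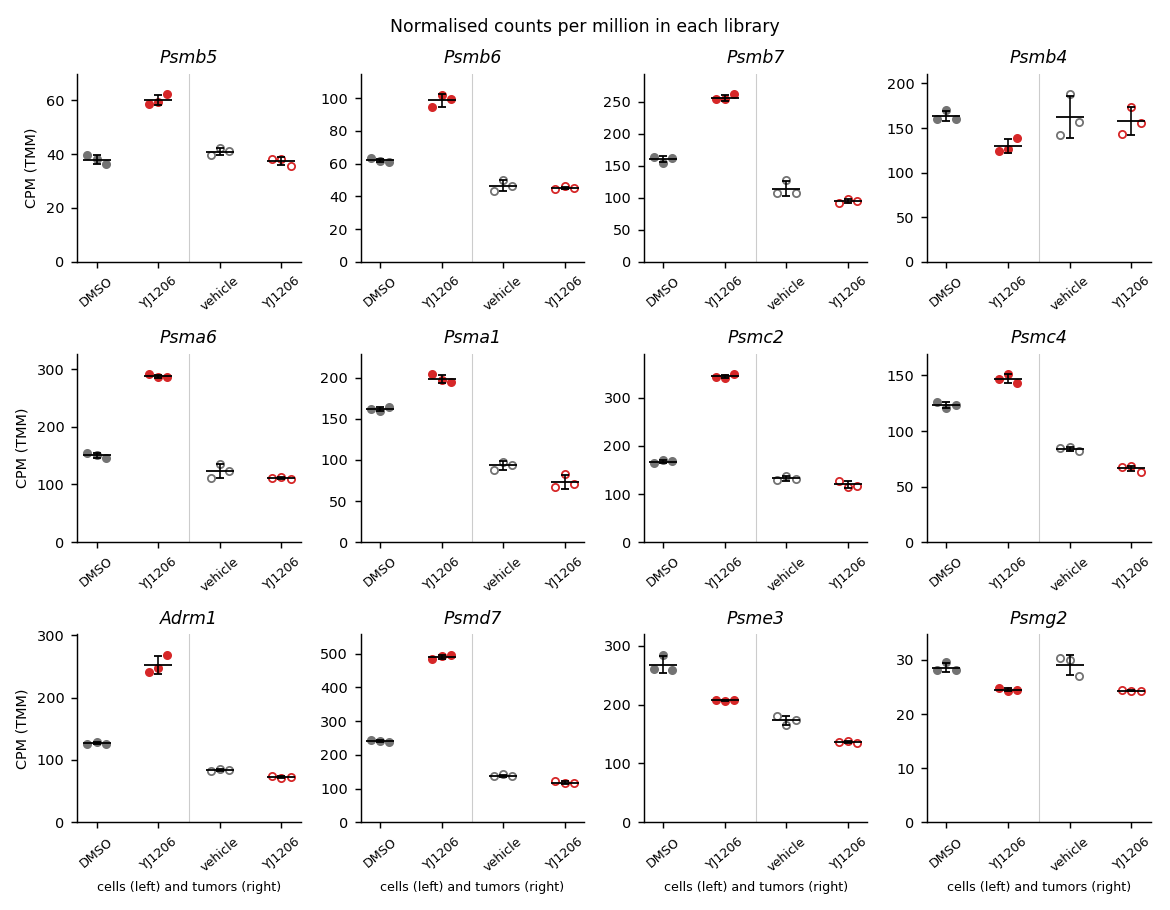
TMM-normalised CPM of 12 proteasome genes in each library, as points for the 3 libraries of a group with the mean and 1 SD in black, controls in grey and YJ1206 in red, filled for cells and open for tumors. In cells the 3 treated libraries of Psmd7 lie at 483 to 495 CPM above controls at 237 to 243 CPM, while in tumors they lie at 116 to 122 CPM below controls at 136 to 142 CPM.

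Since so many of these genes rose together in cells, their promoters were read from the RefSeq table of the GRCm38.p6 assembly, which gave a window for 38 of the 45. The 250 bases before each start were searched on both strands for TGACNNNGC, the core of the antioxidant response element that factors of the Nfe2l1 and Nfe2l2 family bind, for GGCGGG, a GC box, and for CCAAT. The element core was found in 6 of 38 genes (15.8%: Adrm1, Psmb5, Psmb6, Psmc6, Psmd12 and Psmd9), in 10.2% of all 32851 windows and in 13.7% of the 9083 genes that had a window and were tested in cells. GC boxes were in 71.1% of the proteasome genes, 32.5% of all windows and 63% of the tested genes, and CCAAT was in 34.2%, 33.8% and 41.5%. The median log2 fold change in cells was 0.61 for the 6 genes with the element core and 0.45 for the other 32, as a description. In 1 gene, Psmd9, the core overlapped a GC box. Among the 6, Adrm1, Psmb6 and Psmb5 rose the most in cells, and Psmd12, Psmd9 and Psmc6 rose by 0.55, 0.44 and 0.39. Large rises also came without the core: Psmc2, Psma6, Psmd2 and Psma7 rose by 1.04, 0.93, 0.80 and 0.78 with no match. Psmd7, which rose by 1.03, had no window. The upstream stretches of Adrm1, Psmb5 and Psmb6, and of Psmb4, which fell and had no match, are shown to let them be compared. Each is written 5′ to 3′ on the gene's strand, without bases that any annotated exon covers, and capitals mark the element core.
Adrm1 (chr2:180171338-180171484, plus strand): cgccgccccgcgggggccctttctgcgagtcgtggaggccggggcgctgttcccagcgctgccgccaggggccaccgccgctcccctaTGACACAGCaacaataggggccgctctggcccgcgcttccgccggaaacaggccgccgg
Psmb5 (chr14:54618023-54618245, minus strand): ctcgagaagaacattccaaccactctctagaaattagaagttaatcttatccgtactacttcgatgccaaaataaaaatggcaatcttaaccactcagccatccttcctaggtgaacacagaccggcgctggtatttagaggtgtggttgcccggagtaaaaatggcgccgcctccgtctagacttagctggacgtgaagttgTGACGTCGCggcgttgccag
Psmb6 (chr11:70525107-70525356, plus strand): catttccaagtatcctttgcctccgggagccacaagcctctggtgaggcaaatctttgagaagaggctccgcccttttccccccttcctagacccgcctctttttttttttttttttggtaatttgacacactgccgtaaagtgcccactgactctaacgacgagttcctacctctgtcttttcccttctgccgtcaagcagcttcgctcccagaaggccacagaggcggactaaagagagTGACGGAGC
Psmb4 (chr3:94886962-94887208, minus strand): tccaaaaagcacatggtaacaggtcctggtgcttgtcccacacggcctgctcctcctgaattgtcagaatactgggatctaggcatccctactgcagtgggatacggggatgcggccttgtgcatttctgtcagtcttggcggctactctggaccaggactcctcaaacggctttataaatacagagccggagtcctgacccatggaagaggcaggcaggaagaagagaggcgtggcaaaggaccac
Counted from the RefSeq start, the match began 162 bases before it in Adrm1, 47 in Psmb5 and 9 in Psmb6. The printed stretches end 104 bases before that start in Adrm1, 28 in Psmb5, 1 in Psmb6 and 4 in Psmb4. In Adrm1 and Psmb5 the distances therefore include bases that are not printed. A match of letters is not a measured binding site.

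Genes around the proteasome moved in both directions in cells. Of the 39 pathway genes outside the rule, 36 were tested, 19 rose and 9 fell, beside 37.8% and 38.3% of all genes. By list, 5 of 8 hydrolases, ligases and adaptors bound to the proteasome rose and 1 fell. Among 5 genes for ubiquitin and its activating enzymes 3 rose and 1 fell, among 4 tested shuttle factors 3 rose and 1 fell, among 7 genes for Vcp and its cofactors 4 rose and 2 fell, and among 8 regulators of proteasome transcription 2 rose and 2 fell. Sem1, a small lid subunit whose symbol the rule did not cover, rose by 1.11 ± 0.037 (edgeR adjusted p = 5.26e-20). Uchl5, the ubiquitin hydrolase that Adrm1 holds on the base, rose by 0.84, and Usp14, the other hydrolase bound there, by 0.52. Txnl1, a thioredoxin-like protein of the 19S particle, rose by 0.83, and Ubb, a polyubiquitin gene, by 0.80. The shuttle factors, which carry ubiquitin conjugates to the proteasome, split: Ubqln1 and Rad23b rose by 0.73 and 0.64 while Ubqln4 fell (-0.51). Vcp, the unfoldase that extracts substrates, rose by 0.59, and Uba1, the main ubiquitin-activating enzyme, fell (-0.44).

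Of the 8 regulators of proteasome transcription, 4 were called in neither direction. Stat3, a transcription factor, rose by 0.44 (edgeR adjusted p = 1.61e-06), but was at 0.098 and not called on log2(TPM + 1), and Mafg, a small Maf partner of the Nfe2l1 family, fell (-0.36, edgeR adjusted p = 1.42e-07). Nfe2l1 was at 0.03 ± 0.038 (edgeR adjusted p = 0.518) and was called lower with library totals and on TPM. Nfe2l2, its relative in the response to oxidants, rose by 0.30 ± 0.054, but was at -0.01 on log2(TPM + 1), and Keap1, which holds Nfe2l2 protein in check, fell (-0.25). Ddi2 and Ngly1, enzymes that process Nfe2l1 protein, were not called (-0.02 and 0.12). Transcript levels do not measure the processing of these proteins. Of the interferon-inducible catalytic subunits, Psmb8 was at the floor of 3 counts in DMSO cells (3, 3 and 1) and reached 12, 16 and 17 counts in YJ1206 cells. Set against 3 counts in each control library, its mean CPM was 7.33-fold higher, a ratio with no margin for counting error. Psmb9 did not pass the filter (4, 4 and 0 counts in DMSO cells, 15, 6 and 8 in YJ1206 cells), and Psmb10 fell (-0.48 ± 0.125).

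Within tumors the proteasome genes leaned the other way, with smaller changes. None of the 45 was higher at an adjusted p under 0.05, 12 were lower and 33 were not called. Over all 15558 genes tested in tumors, 11.9% were higher and 14.9% lower by the same edgeR test. The median log2 fold change of the proteasome genes was -0.13, beside 0.009 over all genes, and 34 of 45 fitted values were below 0. The CPM of the groups did not overlap for 23 genes, of which 22 were lower with YJ1206 and 1, Psmg4, was higher, against 22.8% and 21.8% of all genes. At an unadjusted p under 0.05 there were 21 proteasome genes (46.7%, beside 39.8% of all genes), and DESeq2 called 10 lower and 0 higher (15.8% and 12.2% of all genes).

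The tumor counts changed with the libraries used. Without both libraries numbered 3, none of the 45 passed (4 at an unadjusted p under 0.05) and 1 of all 15684 genes tested did (3068 unadjusted), while the median of the proteasome genes stayed at -0.138. Leaving out 1 library at a time, 3 to 14 were lower and 0 to 3 higher. The 3 that were higher were Psmb1, Psmb2 and Psmd10, without vehicle library 2, 6.67% of the 45 beside 16.7% of all genes. In that setting 8 were lower, 17.8% of the 45 beside 19.5% of all genes. Without vehicle library 3 or YJ1206 library 3 there were 3 lower, 6.67% beside 7.42% and 6.96% of all genes. Without YJ1206 library 1 there were 5 (11.1% beside 10.5%) and without YJ1206 library 2 there were 4 (8.89% beside 10%). In these 5 settings the proteasome genes were thus called lower at about the share of all genes. Without vehicle library 1 there were 14 (31.1% beside 12.9%). On log2(TPM + 1), 20 were lower and 0 higher (15.4% and 8.1% of all genes).

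Most of the genes called lower in tumors belong to the 19S particle: 6 of the 10 base genes, 2 of the 8 lid genes, 2 of the 14 core genes, Psmg2 and Psme3. Psme3 had the smallest adjusted p, with 181, 166 and 174 CPM in vehicle tumors and 137, 138 and 134 CPM with YJ1206 (log2 -0.35 ± 0.054, edgeR adjusted p = 0.00446). The treated libraries were all below the controls, as they were in cells. Psma1 fell from 87.7, 97.6 and 94.4 CPM to 66.5, 82.4 and 70.6 CPM (log2 -0.35 ± 0.091, edgeR adjusted p = 0.0282), with the treated libraries spread more widely than the controls.

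Of the ATPases, Psmc4 had 84.3, 85.2 and 82.1 CPM in vehicle tumors and 67.4, 68.2 and 63.5 CPM with YJ1206 (log2 -0.34 ± 0.057, edgeR adjusted p = 0.00614). Psmc3 had 123, 127 and 119 CPM against 95.3, 100 and 102 CPM (log2 -0.31 ± 0.056, edgeR adjusted p = 0.00721), and Psmc5 had 98.4, 107 and 106 CPM against 89.6, 85.2 and 87.8 CPM (log2 -0.25 ± 0.058). The groups were apart for all 3. Psmc6, Adrm1 and Psmd1 fell by 0.20, 0.20 and 0.19 on the log2 scale, the last at an edgeR adjusted p of 0.0498.

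In the lid, Psmd7 had 138, 142 and 136 CPM in vehicle tumors and 122, 116 and 116 CPM with YJ1206 (log2 -0.23 ± 0.052, edgeR adjusted p = 0.0157), and Psmd11 had 168, 172 and 161 CPM against 131, 146 and 152 CPM (log2 -0.23 ± 0.069, edgeR adjusted p = 0.0473). Psmg2 went from 30.4, 30.0 and 27.0 CPM to 24.4, 24.3 and 24.2 CPM (log2 -0.27 ± 0.080, edgeR adjusted p = 0.0465). That call was lost with DESeq2 (adjusted p = 0.0521), and in edgeR with no filter (0.0625), with libraries blocked by their number (0.0841) and without any 1 of the 6 libraries (0.0671 to 0.138). None of these groups overlapped. Of the catalytic subunits only Psmb7 was called, with 107, 128 and 108 CPM against 92.6, 97.8 and 95.3 CPM (log2 -0.27 ± 0.080, edgeR adjusted p = 0.0458). Psmb5 was at -0.13 ± 0.068 and Psmb6 at -0.04 ± 0.075, and Psmb6 changed sign without vehicle library 2 (0.014).

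**Figure D3:**
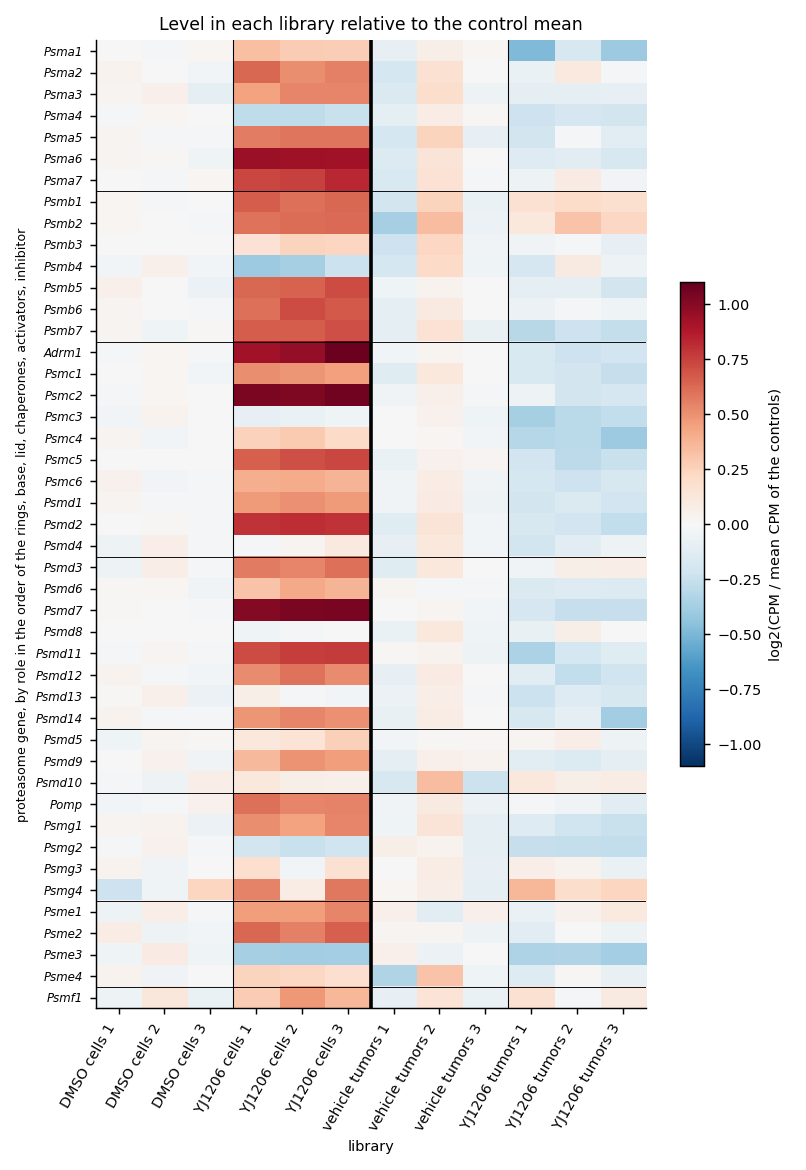
Log2 ratio of each proteasome gene's CPM (rows, ordered by role) to the mean CPM of the controls of its experiment in each of the 12 libraries (columns), red above the controls and blue below. The YJ1206 cell libraries are red for most genes with blue rows for Psme3, Psmb4, Psma4 and Psmg2, and vehicle tumor library 2 is redder than the other vehicle libraries.

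Vehicle tumor library 2 stood apart within its group: 42 of 45 genes lay above the vehicle mean there, against 9 and 14 in vehicle libraries 1 and 3, and the median gene was 0.091 above that mean. Its markers differed too. The summed level of 5 skeletal muscle markers was 26.6 TPM there against 695 and 420 TPM in vehicle libraries 1 and 3, and 11 to 13.4 TPM in YJ1206 tumors, and the summed fibroblast markers were 220 TPM against 729 and 526, and 159 to 359 with YJ1206. Epithelial markers summed to 141 to 254 TPM in vehicle tumors and 188 to 219 TPM in YJ1206 tumors, with overlap, and leukocyte markers to 140 to 352 and 405 to 436 TPM, without it. Summed macrophage and monocyte markers (306 to 488 and 343 to 449 TPM), T and NK cell markers (9.10 to 11.9 and 9.80 to 11.2 TPM) and fibroblast markers overlapped between the groups, whereas neutrophil markers were lower with YJ1206 (19.9 to 27.0 and 10.7 to 16.4 TPM) and endothelial (46.8 to 47.8 and 48.0 to 56.2 TPM) and adipocyte markers (68.5 to 73.2 and 88.5 to 111 TPM) were higher, without overlap and with no test of the sums. Of the tested markers, 4 of 4 for muscle and 1 of 4 for neutrophils were lower. Higher were 2 of 7 for macrophages and monocytes, 1 of 3 for T and NK cells, 1 of 5 for the endothelium and 1 of 2 for adipocytes, and 0 of 4 for the epithelium, 0 of 5 for leukocytes and 0 of 6 for fibroblasts passed. In bulk tissue, fewer cells of a type and less RNA per cell cannot be told apart, and the part of these cells in the proteasome values was not tested.

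The difference between tumors and cells was tested as an interaction over all 12 libraries and 15423 genes. Dose, schedule, the presence of host cells and library series also differed between the experiments. Their parts in the difference cannot be told apart from that of the material. The YJ1206 effect on 31 proteasome genes was lower in tumors than in cells, and on 0 higher, at an edgeR adjusted p under 0.05. Over all genes 26% were lower and 20.8% higher. The median difference was -0.62 on the log2 scale. Without both tumor libraries 3, 30 were lower and 0 higher (22.6% and 16.2% of all genes). DESeq2 called 36 lower and 0 higher (28.0% and 19.4% of all genes), and 35 had an unadjusted p under 0.05 by edgeR (77.8%, beside 52.6% of all genes). With library totals in place of TMM, 27 were lower and 4 (Psma4, Psmb4, Psmd8 and Psme3) were higher, beside 18.7% and 29.9% of all genes. The median over all genes moved from -0.011 to 0.199 there.

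**Figure D4:**
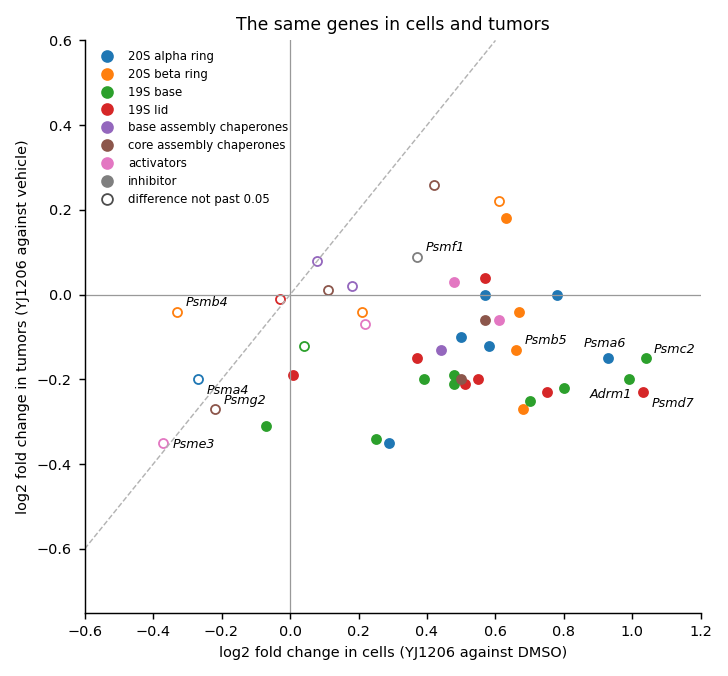
Log2 fold change with YJ1206 of each proteasome gene in cells (horizontal) against tumors (vertical), coloured by role, filled where the difference passed an adjusted p of 0.05, with the dashed line marking equal change. The genes with the largest rise in cells, Psmc2, Psmd7 and Adrm1, lie below 0 in tumors, and Psme3 and Psmg2 lie near the line.

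The largest differences were those of Psmd7 (-1.29 ± 0.053, edgeR adjusted p = 3.04e-09), Psmc2 (-1.22 ± 0.063) and Adrm1 (-1.22 ± 0.067), all of the 19S particle, where 16 of 18 genes differed. In the core 10 of 14 differed, among them Psma6 (-1.11), Psmb7 (-0.98), Psmb5 (-0.83) and Psmb6 (-0.74). Among the chaperones 3 of 8 differed and among the activators 2 of 4. For Psmc2 the values were 1.04 in cells and -0.15 ± 0.062 in tumors, the latter not called.

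Both experiments gave a call for 11 genes. Of these, 9, namely Adrm1, Psma1, Psmb7, Psmc4, Psmc5, Psmc6, Psmd1, Psmd11 and Psmd7, were higher in cells and lower in tumors, against 7.23% of the 11307 genes tested in all comparisons. With the cell calls as they are, 6 of these 9 were still lower in tumors without vehicle library 2. Without vehicle library 1, Psmd1 and Psmd11 were no longer called lower. Without YJ1206 library 1 there were 3 (Psmc4, Psmc5 and Psmd7), and without YJ1206 library 2 there were 2 (Psma1 and Psmc4). There was 1 (Psmc4) without vehicle library 3, 1 (Psmc4) without YJ1206 library 3 and 0 without both libraries 3. Psma1 and Psmc4 were not higher in cells on log2(TPM + 1). Psme3 and Psmg2 were lower in both. Their differences were -0.01 ± 0.070 and -0.07 ± 0.095, with edgeR adjusted p-values of 0.94 and 0.577. With library totals the difference for Psme3 became 0.208 and passed (adjusted p = 0.0251).

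Of the pathway genes outside the rule, 38 were tested in tumors, 2 rose and 8 fell, beside 11.9% and 14.9% of all genes. These calls used all tumor libraries, and without both libraries 3 only 1 of all 15684 genes tested in tumors passed. Sem1, which rose in cells, also rose in tumors (0.17 ± 0.047, edgeR adjusted p = 0.0356), and the difference between them was -0.97. Rad23b, higher in cells, was lower in tumors (-0.25), and Ngly1 and Akirin2, a factor for nuclear import of proteasomes, were lower in tumors (-0.52 and -0.43). Stat3 rose in tumors (0.34) and in cells (0.44). Uba1 and the ubiquitin ligase gene Ube3c fell in tumors (-0.20 and -0.20) and in cells, Ube3c there by 0.13 on the log2 scale. Nploc4, a cofactor of Vcp, rose in cells (0.37) and fell in tumors (-0.20). Nfe2l1 was at 0.15 ± 0.050 (edgeR adjusted p = 0.0594) and Ddi2 at -0.05 ± 0.123. Psmb8, Psmb9 and Psmb10 were not called in tumors, at -0.05, 0.18 and -0.25.

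Summed per library, the 45 genes held 8695 to 8766 TPM in DMSO cells and 9755 to 9811 TPM in YJ1206 cells. In tumors they held 5890 to 6635 TPM with vehicle and 5436 to 5589 TPM with YJ1206. The groups did not overlap in either experiment, and the directions were opposite. By role, the base summed to 2246 ± 16.9 and 2641 ± 10.7 TPM in cells and to 1329 ± 42.4 and 1089 ± 22.9 TPM in tumors (SD, n = 3), while the beta ring summed to 1361 ± 168 and 1294 ± 39.5 TPM in tumors, with overlap. In cells the activators summed to 377 to 395 TPM with DMSO and 346 to 363 TPM with YJ1206, apart and in the other direction from the base, and the base chaperones to 123 to 131 and 108 to 124 TPM, with overlap. Levels were not tested between cells and tumors. Their tables list different genes, and the CPM values of each were normalised separately, while the interaction fit was normalised over all 12 libraries.

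**Figure D5:**
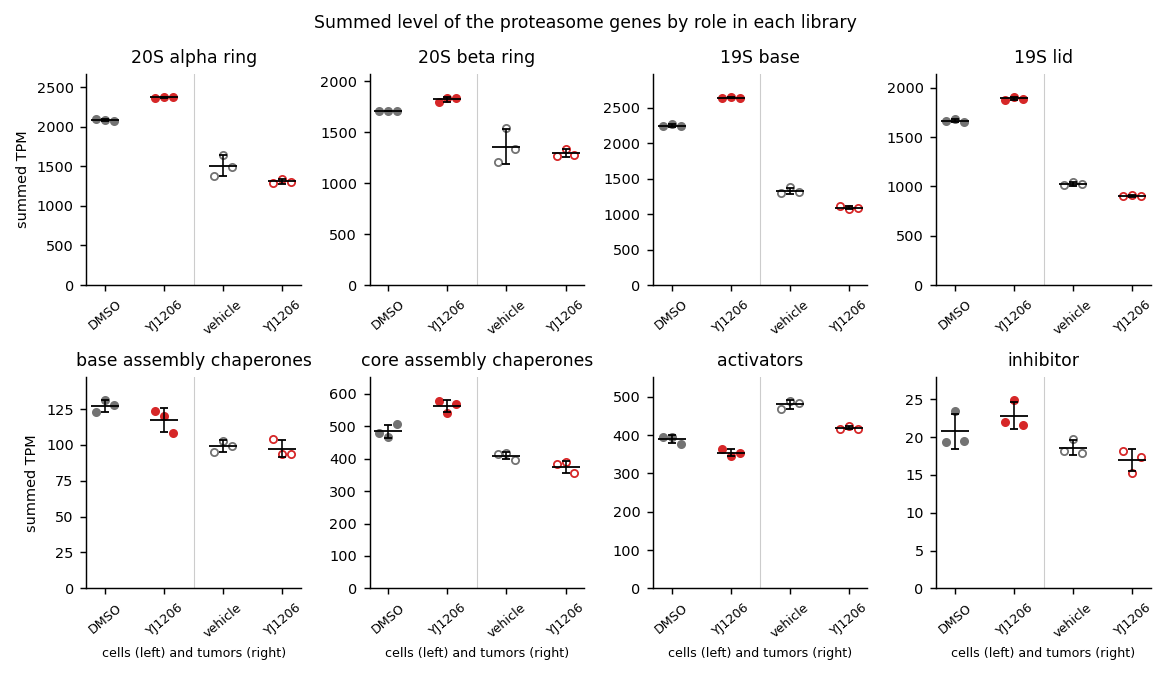
Summed TPM of the proteasome genes by role in each library, as points for the 3 libraries of a group with the mean and 1 SD in black, controls in grey and YJ1206 in red, filled for cells and open for tumors. The 19S base lies higher with YJ1206 in cells and lower with YJ1206 in tumors, with no overlap in either.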

How the data were processed

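The values deposited for each experiment are estimated counts per gene, which the authors left unscaled between libraries, and TPM values, which the authors corrected for gene length and which sum to 1000000 per library. The submitters' processing notes name kallisto and GRCm38 (mm10); the annotation was not given in the sources used here. The cell labels name polyA RNA while the protocol removed ribosomal RNA, and kallisto's use of strand was not given, so overlapping genes may share reads. The proteasome genes, the pathway lists and the marker lists were chosen with earlier results of these data known, and 4 genes of the pathway and marker lists are not reported here.

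Estimated counts were rounded to whole numbers, a change from tests planned on counts, and tested in R 4.3.3 by the quasi-likelihood method of edgeR 4.0.16 (glmQLFit and glmQLFTest after filterByExpr and TMM), with Benjamini-Hochberg adjustment over all genes tested and a threshold of 0.05. Cells and tumors had separate fits of 6 libraries, and the difference between them over all 12 libraries and the 34507 genes shared by identifier without version. With 3 against 3 libraries, an exact permutation test of a single value cannot go below 0.1, so none was used. Alternatives used DESeq2 1.42.0, limma 3.58.1 on log2(TPM + 1) and log2(TPM + 0.1), library totals, no filter, a replicate block, limma-voom weights per material and libraries left out. The fits were also run on simulated data in which 200 genes changed, as many up as down. That setting does not test the scaling in cells, where 76.1% of the genes tested were called. Libraries of a group were compared pairwise, and none were identical. At these depths 3 counts, the floor, correspond to 0.111 to 0.215 CPM, which covers counting error only.

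Genes were named by a rule: the 3 catalytic subunits; the 4 largest rises and falls among those past the threshold in each experiment; the 4 with the smallest p for the difference between experiments; up to 6, by that p, called in opposite directions; the highest and lowest by mean TPM; and, of the pathway genes, Nfe2l1, Nfe2l2, Ddi2, Psmb8 to Psmb10 and those called in both experiments. Others were named to complete a role, after their values were seen. Promoter windows came from RefSeq (GRCm38.p6), and exons from GENCODE vM21. No protein sequences were used here.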

Additional observations from a re-analysis of the deposited data

Results flagged for a closer look

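The YJ1206 effect differed between tumors and cells for 31 of the 45 proteasome genes by the interaction test in edgeR, each time lower in tumors. Dosing, host cells and library series differed together with the material and cannot be told apart from it. Among the genes named by rule, the difference (log2, tumors minus cells) was -1.29 for Psmd7, -1.22 for Psmc2, -1.22 for Adrm1, -1.11 for Psma6, -1.01 for Psmd11, -0.98 for Psmb7, -0.97 for Psmc5, -0.83 for Psmb5, -0.74 for Psmb6, -0.70 for Psmd1, -0.67 for Psma1, -0.62 for Psmc4 and -0.27 for Psmc3. In Psmc3 the difference came with a fall in tumors and a cell value that missed the threshold, whereas in the other 12 the cell value was a rise. Groups of 3 libraries were not searched for single outlying values.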

How the results depend on the processing

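In cells, library totals gave 8 proteasome genes lower and a median of 0.297, and log2(TPM + 0.1) and log2(TPM + 1) each gave 11 lower and a median of 0.169. In tumors, log2(TPM + 0.1) and log2(TPM + 1) each gave 20 lower with medians of -0.196 and -0.195, and leaving out library 3 of both groups gave 0 lower. Leaving out 1 library gave 3 to 14 lower and 0 to 3 higher in tumors, and for the difference between tumors and cells 0 to 1 higher, the 1 being Psmb4 without vehicle library 2. Library totals gave 4 higher for that difference, beside 29.9% of all genes. Same-numbered libraries did not deviate together (correlations of -0.030 to 0.003), and other pairs lay at -0.038 to 0.047. Values this near 0 cannot settle whether the numbers pair the libraries. The replicate block gave 6 lower in tumors (12.4% of all genes lower), with 4 genes higher in cells and lower in tumors. It gave 1 higher for the difference, and 35 higher and 4 lower in cells. The cause of these changes was not tested.

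Signs also changed for values that were near 0 or that scaling moved. In cells, log2(TPM + 0.1) and log2(TPM + 1) gave -0.028 and -0.028 for Psma1, -0.063 and -0.062 for Psmc4, -0.123 and -0.122 for Psmb3, -0.246 and -0.240 for Nfe2l1, -0.010 and -0.010 for Nfe2l2, and 0.004 and 0.0039 for Ddi2, and library totals gave -0.159 for Nfe2l1. In tumors they gave -0.136 and -0.129 for Psmf1. Leaving out 1 library at a time in tumors, values ran from -0.096 to 0.014 for Psmb6, -0.132 to 0.078 for Psmb4, -0.147 to 0.088 for Psmb3, -0.126 to 0.022 for Psmb8, -0.104 to 0.017 for Nfe2l2 and -0.172 to 0.072 for Ddi2. For the difference, library totals gave 0.208 for Psme3, 0.148 for Psmg2, 0.157 for Ddi2, 0.083 for Stat3 and 0.123 for Ube3c, and leaving out 1 library gave -0.0099 to 0.080 for Psma4, -0.062 to 0.021 for Psme3 and -0.196 to 0.061 for Ddi2. Of the other values of single genes under the alternatives, 1169 kept their direction and side of the threshold, 121 no longer passed and 26 newly passed. Matching identifiers with their version, chosen after seeing the data, left out Psmc2 and gave 30 of 44 genes lower for the difference.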
